A study of Mus musculus with 6 samples.

Results

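The numbered *Zfp* genes of the mouse, those whose symbol is Zfp followed by a number, were examined in *Hoxa9* leukemias with and without *IRX3*. A gene was included when its RPKM, the read count of a gene divided by its length and by the library total, was over 0.5 in at least 3 of 6 mice. This held for 223 of the 340 numbered *Zfp* genes listed, among 41128 genes in all, so the members were chosen by their expression level in these same mice. RNA was from donor-derived KIT+Gr1+ cells flow-sorted from the bone marrow (BM) of female C57BL/6 recipients with acute myeloid leukemia (AML), with 1 library per mouse. Donor KIT+ BM cells (CD45.1+) came from female B6.SJL mice, and those of all 6 leukemias carried retroviral *Hoxa9*. In the 3 *Hoxa9*/MTV mice (1.1, 1.2 and 1.4) the second virus was the empty vector MTV, and in the 3 *Hoxa9*/*IRX3* mice (3.2, 3.3 and 3.5) it held a human *IRX3* cDNA. Recipients were irradiated, and both viral vectors were MSCV-based. The mice are separate animals, and their numbers pair nothing between cohorts.

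Most numbered *Zfp* genes encode C2H2 zinc finger proteins. In this fold a pair of cysteines and a pair of histidines hold a zinc ion, and an array of fingers reads a stretch of DNA base by base. Many also carry a KRAB box, which recruits the corepressor TRIM28 (KAP1) and through it the H3K9 methyltransferase SETDB1 and HP1 proteins, so that transposable elements and some imprinted loci stay silent. The family has grown by tandem duplication, which left clusters of similar genes. A few numbered *Zfp* genes are of other kinds, such as *Zfp36*, which encodes the mRNA decay factor tristetraprolin with CCCH fingers that bind RNA.

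The coding bases of 1 finger are shown for 3 members whose values are described further on, to show both kinds of finger. They are read 5′ to 3′ from GENCODE M21 transcripts on GRCm38, and capitals mark the codons of the zinc-binding cysteines and histidines. The *Zfp78* finger is its second, in exon 4 (chr7:6378655-6378717, plus strand). The *Zfp809* finger is also its second, in exon 5 (chr9:22238764-22238826, plus strand). The *Zfp36* finger is the first of 2 CCCH fingers, in exon 2 (chr7:28378158-28378217, minus strand).
Zfp78: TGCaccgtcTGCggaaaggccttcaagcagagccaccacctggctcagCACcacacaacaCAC
Zfp809: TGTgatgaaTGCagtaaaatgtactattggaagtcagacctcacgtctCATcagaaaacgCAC
Zfp36: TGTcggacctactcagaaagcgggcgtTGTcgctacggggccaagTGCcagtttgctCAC

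The libraries were compared first on their own terms. They held 7979246 to 9803621 mapped reads, recovered from the steps between low RPKM, and the median member had 213 to 318 reads per mouse. *Irx3* was listed at 0 in every *Hoxa9*/MTV mouse and reached 15.1 RPKM in mouse 3.2, 0.421 in mouse 3.3 and 0.148 in mouse 3.5, where reads of the human cDNA count only if they aligned to the mouse gene. Of the sorting markers, *Kit* lay between 1.63 and 3.12 RPKM in all 6 mice, while *Ly6g* was at 0.0532 to 0.145 RPKM in *Hoxa9*/MTV versus 0.682 to 1.42 RPKM in *Hoxa9*/*IRX3* mice. The 5 markers listed, with *Ly6c2*, *Itgam* and *Ptprc*, summed to 421 to 487 and 423 to 854 RPKM. Most of this was *Ly6c2*, at 413 to 479 and 414 to 844 RPKM with overlapping cohorts (adjusted p = 0.278 by limma). The cells were sorted on CD45.1, KIT and Gr1, so *Itgam* was not itself sorted on. *Ly6g* passed 0.5 RPKM in the *Hoxa9*/*IRX3* mice alone and is given without a test. The summed RPKM of 9 granulocyte genes was 3097 to 4559 in *Hoxa9*/MTV and 6809 to 7475 in *Hoxa9*/*IRX3* mice, with 1 gene (*Elane*, means of 794 and 2964 RPKM) called higher. *Elane*, *Mpo*, *Prtn3* and *Ctsg* did not overlap between cohorts, while the other 5, among them *Ltf*, *Ngp* and *Camp*, did. The summed RPKM of 8 monocyte genes was 102 to 128 and 16.5 to 87.5, with 4 called lower. The cohorts overlapped in *Irf8*, *Csf1r* and *F13a1*, where mouse 3.3 reached or passed the *Hoxa9*/MTV range (63.1, 6.43 and 11.1 RPKM). In the other monocyte genes all *Hoxa9*/*IRX3* mice were lower. The summed RPKM of 6 B cell genes was 6.26 to 7.13 and 0.276 to 2.31, with 1 called lower, and *Pax5*, *Ms4a1* and *Ebf1* were under 0.1 RPKM in every mouse. The defining T and NK cell genes summed to at most 0.0208 RPKM. Those of erythroid cells summed to 0.0748 to 0.169 and 0.300 to 0.342 RPKM, and those of megakaryocytes to 0.448 to 0.857 and 0.0485 to 0.804 RPKM. The T and NK cell and erythroid genes were too weak to be tested. Only 1 of the 4 megakaryocyte genes was tested, and it was not called. *Klf1* was the only erythroid gene without overlap between cohorts, at 0.0307 to 0.134 RPKM in *Hoxa9*/MTV versus 0.268 to 0.303 RPKM in *Hoxa9*/*IRX3* mice. The myeloid lists thus differed between the cohorts, and their part in the results on *Zfp* genes was not tested. In sorted bulk cells, fewer cells of a type and less RNA per cell cannot be told apart.

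The 223 members comprised 222 symbols, since *Zfp319* stands at 2 identifiers. GENCODE M21 lists 220 of them as protein-coding, 2 (*Zfp125* and *Zfp783*) as transcribed pseudogenes, and has no entry for the second *Zfp319* identifier. In all, 186 members were over the threshold in all 6 mice. Of the 117 numbered genes left out, 24 were listed at 0 in every mouse. The mean RPKM over 6 mice, a level per length of the whole gene with introns, ranged from 0.436 to 97.7 among the protein-coding members, with a median of 1.87. A mean over 10 RPKM was reached by 17 members, and 55 were under 1 RPKM. At the edge of the rule, the third highest of the 6 values was 0.510 RPKM for *Zfp882*, 0.521 for *Zfp420* and 0.538 for *Zfp647*, just inside. It was 0.493 for *Zfp617*, 0.491 for *Zfp850* and 0.482 for *Zfp458*, just outside. The median member spanned 15781 bases with 4738 bases of exons, and 272 of 340 would have passed the same number per length of exons.

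The first question was whether the numbered *Zfp* genes differed in expression between *Hoxa9*/*IRX3* and *Hoxa9*/MTV leukemias. The members *Zfp78*, *Zfp11* and *Zfp948* passed the threshold in every *Hoxa9*/*IRX3* mouse and in no *Hoxa9*/MTV mouse, so that they had to differ. Their values are given without a test. Among the other 217 protein-coding members, 0 were called higher and 0 lower by limma (adjusted p under 0.05 over all 9522 protein-coding genes tested and at least 2-fold on log2(RPKM + 0.5)). Of the 8370 genes tested that met the same RPKM rule in both cohorts, 0.765% were called higher and 1.59% lower. On adjusted p alone, regardless of size, 0 members were higher and 2 were lower, beside 1.37% and 2.99% of those genes. At an unadjusted p under 0.05, 9 members were higher and 25 lower (4.15% and 11.5%), beside 7.04% and 15.7%. The criterion of the study (a ratio of mean RPKM over 2 with an unadjusted p under 0.05) was met by 2 members that were higher and 3 that were lower, beside 1.27% and 3.62%. Each of these shares of members lay below its background with the RPKM as deposited. Apart from the unadjusted split, the counts were too small to set the members apart from those genes. The members were also weaker (median of the mean 1.89 RPKM, beside 2.58 RPKM), and the differences from the background were not tested. limma voom on the recovered reads called 0 in both directions.

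The small differences shifted with scaling, in the members and in all genes alike. With the RPKM as deposited, the median log2 fold change of the 217 members was -0.06 (quartiles -0.24 and 0.13), beside -0.08 (quartiles -0.32 and 0.13) for the 8370 genes. With median-of-ratios scaling these medians were 0.01 and -0.01, and with quantile normalization 0.03 and 0.0034. The unadjusted split of the members became 18 higher and 16 lower (8.29% and 7.37%) with median-of-ratios scaling, beside 10.5% and 12.3% of the 8370 genes. It became 20 and 16 (9.22% and 7.37%) with quantile normalization, beside 11.4% and 11.7%. Single mice moved it as well. Without mouse 1.1, 17 members were higher and 13 lower (7.83% and 5.99%), beside 5.47% and 10.6%, so that the higher share lay above its background there. The split was 4 and 19 without mouse 1.2 (1.84% and 8.76%, beside 4.64% and 10.9%) and 6 and 12 without mouse 1.4 (2.76% and 5.53%, beside 4.83% and 9.34%). Without mouse 3.5 it was 14 and 19 (6.45% and 8.76%, beside 8.53% and 14.1%). Values did not overlap between the cohorts for 14 members that were higher in all 3 *Hoxa9*/*IRX3* mice and 32 that were lower (6.45% and 14.7%), beside 10.2% and 21.6% of all genes under the rule. In the typical member, mice of 1 cohort differed by an SD of 0.16 (*Hoxa9*/MTV) and 0.21 (*Hoxa9*/*IRX3*) on the log2 scale, beside 0.12 and 0.24 for all genes under the rule.

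**Figure D1:**
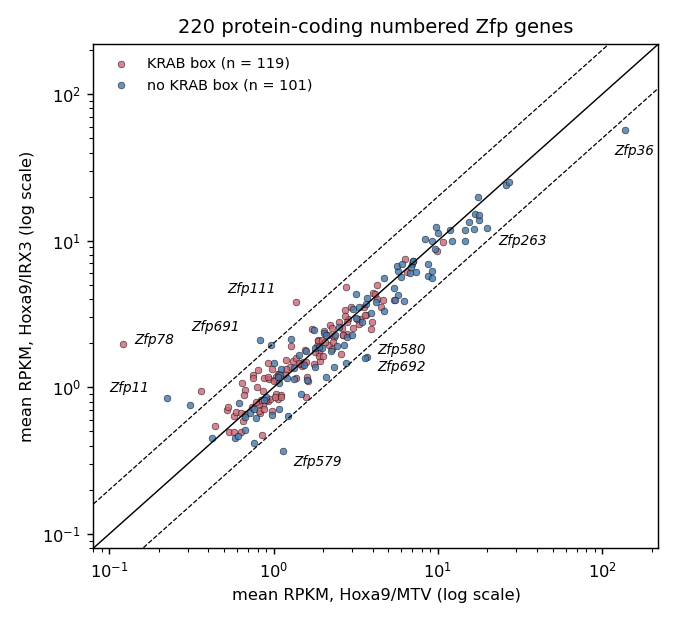
Mean RPKM of the 220 protein-coding members in *Hoxa9*/IRX3 (vertical, n = 3) against *Hoxa9*/MTV mice (horizontal, n = 3), both on log scales, with members that have a KRAB box in red and the others in blue. The solid line marks equal means and the dashed lines a ratio of 2. Most members lie between the dashed lines over the whole range of levels, and *Zfp78* lies farthest above them.

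*Zfp78*, which encodes a KRAB protein with 11 C2H2 fingers (ENSMUSG00000055150; GRCm38 chromosome 7, 6363280 to 6382605, plus strand), had the largest difference of all members. It was at 0.167, 0.0444 and 0.153 RPKM in mice 1.1, 1.2 and 1.4 and at 2.10, 2.42 and 1.39 RPKM in mice 3.2, 3.3 and 3.5. All *Hoxa9*/*IRX3* mice were thus far above all *Hoxa9*/MTV mice, with means of 1.97 ± 0.529 and 0.121 ± 0.067 RPKM (SD, n = 3 each), a ratio of 16.2. These levels rest on an estimated 7.13 to 28.5 reads in *Hoxa9*/MTV and 214 to 459 reads in *Hoxa9*/*IRX3* mice. Neighbors differed less. *Zfp28*, whose annotated start lies 0.69 kb from the end of *Zfp78* and which was below the threshold, had means of 0.311 ± 0.108 and 0.431 ± 0.0744 RPKM (SD, n = 3 each). *Zfp444*, 169 kb away, had means of 1.10 ± 0.154 and 1.22 ± 0.242 RPKM (SD, n = 3 each). In both of them the ranges of the cohorts overlapped. Of 5 numbered neighbors within 250 kb, none was higher in all *Hoxa9*/*IRX3* mice, and *Zfp787*, 207 kb away, was lower in all of them, at 2.25 ± 0.110 and 1.76 ± 0.197 RPKM (SD, n = 3 each).

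The other 2 members that passed through 1 cohort were weakly expressed. *Zfp11* (21 fingers, no KRAB box found) was at 0.299, 0 and 0.373 RPKM in *Hoxa9*/MTV versus 0.684, 1.06 and 0.800 RPKM in *Hoxa9*/*IRX3* mice, a ratio of means of 3.78. *Zfp948*, a KRAB gene on chromosome 17, was at 0.339, 0.300 and 0.449 and at 0.975, 1.22 and 0.631 RPKM, a ratio of 2.60. Of 8 numbered neighbors of *Zfp948* within 250 kb, *Zfp820* was higher in all *Hoxa9*/*IRX3* mice, at 0.026 ± 0.00693 and 0.352 ± 0.259 RPKM, and *Zfp53* was lower, at 1.77 ± 0.0935 and 1.44 ± 0.230 RPKM (SD, n = 3 each). The others overlapped between cohorts, among them *Zfp52*, 4.41 kb away, with means of 4.65 ± 0.626 and 3.94 ± 1.14 RPKM (SD, n = 3 each).

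Of the members tested, the largest difference on the higher side was in *Zfp111*, a KRAB gene with 14 fingers (ENSMUSG00000087598; chromosome 7, 24193947 to 24211443, minus strand). It was at 2.17, 0.619 and 1.33 RPKM in *Hoxa9*/MTV versus 4.21, 3.56 and 3.63 RPKM in *Hoxa9*/*IRX3* mice. The cohorts did not overlap, the *Hoxa9*/MTV mice were the more variable, and limma gave a log2 change of 1.28 ± 0.30 (SE) with adjusted p = 0.0631, so that it did not pass the test. With quantile normalization it did (1.39, adjusted p = 0.0448). In the same cluster, *Zfp109*, 16.1 kb away, had means of 0.744 ± 0.230 and 1.22 ± 0.454 RPKM (SD, n = 3 each), with overlapping cohorts. Of 9 numbered neighbors within 250 kb, 2 were higher in all *Hoxa9*/*IRX3* mice, both far below the RPKM rule. These were *Zfp114* (10.8 kb away, 0.0458 ± 0.0284 and 0.152 ± 0.0619 RPKM) and *Zfp93* (0.0993 ± 0.0124 and 0.233 ± 0.109 RPKM, SD, n = 3 each). The cohorts of the other 7 overlapped.

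*Zfp691* (7 fingers, no KRAB box found; chromosome 4, 119169513 to 119174195) was at 0.700, 0.746 and 1.04 RPKM in *Hoxa9*/MTV versus 2.07, 2.83 and 1.39 RPKM in *Hoxa9*/*IRX3* mice. All 3 *Hoxa9*/*IRX3* mice were higher, with a log2 change of 0.94 ± 0.22 (SE) and adjusted p = 0.0643 by limma. It was called with quantile normalization (1.02, adjusted p = 0.0356), with sample weights (1.00, adjusted p = 0.0481) and without mouse 3.5 (1.15, adjusted p = 0.0344).

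*Zfp809* encodes the KRAB protein that recognizes the proline primer binding site of murine leukemia viruses and silences their proviruses in embryonic cells (ENSMUSG00000057982; chromosome 9, 22225714 to 22243354, plus strand). It was at 3.60, 1.61 and 3.08 RPKM in mice 1.1, 1.2 and 1.4 and at 5.25, 5.30 and 3.89 RPKM in mice 3.2, 3.3 and 3.5. Each *Hoxa9*/*IRX3* mouse was above each *Hoxa9*/MTV mouse, with means of 4.82 ± 0.801 and 2.76 ± 1.03 RPKM (SD, n = 3 each). The log2 change of 0.75 ± 0.27 (SE, limma, adjusted p = 0.153) did not pass the test, and ranged from 0.46 to 0.94 when each mouse was left out. Its neighbor *Zfp810*, 33.4 kb away, had overlapping cohorts with means of 0.630 ± 0.053 and 0.496 ± 0.144 RPKM (SD, n = 3 each). An annotated gene on the same strand overlaps *Zfp809*, so reads could be split between them.

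A further 6 members were higher at an unadjusted p under 0.05, and none of them passed the adjusted test. The KRAB genes *Zfp935*, *Zfp251*, *Zfp141* and *Zfp266* had log2 fold changes of 0.48, 0.44, 0.44 and 0.27. *Zfp395* and *Zfp664*, in which no KRAB box was found, had 0.58 and 0.38. *Zfp935* overlaps *Zfp934* on the same strand of chromosome 13, so its RPKM is uncertain.

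**Figure D2:**
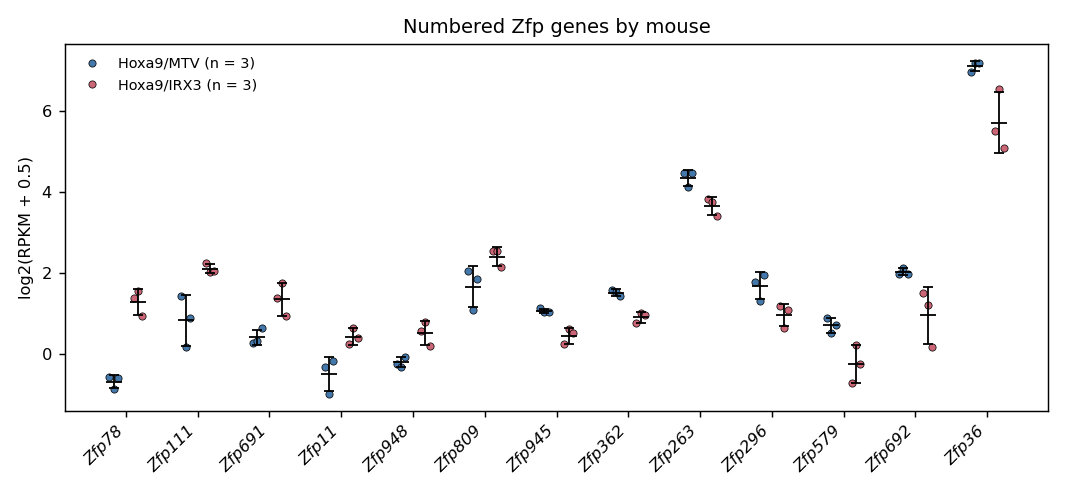
Expression of 13 members in each of the 6 mice as log2(RPKM + 0.5), with *Hoxa9*/MTV mice in blue and *Hoxa9*/IRX3 mice in red (points are mice, bars the mean ± SD of each cohort, n = 3). The cohorts do not overlap for any of these genes, which were chosen for that, and *Zfp78* shows the widest gap.

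Among members with lower expression in *Hoxa9*/*IRX3* leukemias, *Zfp36* had the largest difference on the log2(RPKM + 0.5) scale and was also the most highly expressed member per length (ENSMUSG00000044786; chromosome 7, 28376784 to 28380253, minus strand). It was at 124, 146 and 145 RPKM in *Hoxa9*/MTV versus 45.1, 93.0 and 33.2 RPKM in *Hoxa9*/*IRX3* mice. All 3 *Hoxa9*/*IRX3* mice were below, with mouse 3.3 between the others and the controls. limma gave a log2 change of -1.40 ± 0.37 (SE) with adjusted p = 0.0776, and without mouse 3.3 it was -1.82 (adjusted p = 0.0121). Tristetraprolin mRNA is itself an early response transcript. The 12 listed genes of its family and of the early response summed to 888 to 1584 RPKM in *Hoxa9*/MTV versus 335 to 637 RPKM in *Hoxa9*/*IRX3* mice. Of these, *Fos* was called lower. *Jun*, *Egr1*, *Dusp1* and *Ier2* were lower without overlap but were not called (adjusted p = 0.0549, 0.147, 0.0731 and 0.0741 by limma). In *Junb*, *Fosb*, *Btg2*, *Zfp36l1* and *Ier3* the cohorts overlapped. *Ier3* had means of 35.5 ± 32.5 and 35.9 ± 23.2 RPKM (SD, n = 3 each). *Nr4a1*, over 0.5 RPKM in the *Hoxa9*/MTV mice alone, had means of 1.44 ± 0.651 and 0.175 ± 0.152 RPKM (SD, n = 3 each), given without a test. Of its relatives, *Zfp36l2* had a log2 fold change of -0.75 (adjusted p = 0.0969 by limma). The part of this early response list in the result on *Zfp36* was not tested.

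Only 2 members had an adjusted p under 0.05, both at less than a 2-fold change. *Zfp362* (6 fingers; chromosome 4, 128773088 to 128806045) was at 2.48, 2.38 and 2.16 RPKM in *Hoxa9*/MTV versus 1.18, 1.51 and 1.43 RPKM in *Hoxa9*/*IRX3* mice. It was lower in all 3 mice, with a log2 change of -0.60 ± 0.12 (SE) and adjusted p = 0.0370 by limma. The KRAB gene *Zfp945* (18 fingers; chromosome 17, 22846697 to 22867134) was at 1.67, 1.55 and 1.53 and at 0.668, 1.01 and 0.914 RPKM. It too was lower in all 3 mice, by -0.62 ± 0.13 (SE, limma adjusted p = 0.0465). In both genes the adjusted p was over 0.05 in 5 of the 6 fits that left out 1 mouse, all but that without mouse 3.3, and the highest values were 0.155 and 0.171. It was also over 0.05 with median-of-ratios scaling (0.0607 and 0.0657) and with quantile normalization (0.0683 and 0.0739).

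Further large differences on the lower side did not pass the test. *Zfp692* was at 3.44, 3.87 and 3.42 RPKM in *Hoxa9*/MTV versus 2.31, 1.79 and 0.613 RPKM in *Hoxa9*/*IRX3* mice (log2 change -1.08 ± 0.33 SE, limma adjusted p = 0.113). *Zfp579* was at 1.35, 0.931 and 1.13 and at 0.107, 0.652 and 0.336 RPKM (-0.96 ± 0.25 SE, limma adjusted p = 0.0759), and without mouse 3.3 at -1.19 (adjusted p = 0.0330). In both, the *Hoxa9*/*IRX3* mice were all lower but differed widely among themselves. *Zfp263*, which encodes a C2H2 factor with 9 fingers and whose KRAB box may have been missed by the profile, was at 21.4, 16.9 and 21.7 and at 13.6, 12.8 and 10.05 RPKM (-0.70 ± 0.17 SE, limma adjusted p = 0.0715). *Zfp296*, known from embryonic stem cells and reprogramming, was at 2.92, 1.96 and 3.34 and at 1.74, 1.06 and 1.60 RPKM (-0.71 ± 0.21 SE, limma adjusted p = 0.108). The cohorts did not overlap in either gene. *Zfp628* and the KRAB gene *Zfp715* were lower in all 3 mice as well, at -0.68 and -0.55 (adjusted p = 0.0594 and 0.0580 by limma).

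*Zfp579* and *Zfp628* lie in a group of *Zfp* genes on chromosome 7 together with *Zfp580*, *Zfp524*, *Zfp784* and *Zfp865*. Their values differed. *Zfp580* was at 3.41, 4.51 and 3.11 RPKM in *Hoxa9*/MTV versus 0.361, 3.12 and 1.32 RPKM in *Hoxa9*/*IRX3* mice, so that mouse 3.3 reached the control range (log2 change -1.21 ± 0.49 SE, limma adjusted p = 0.191, and -1.73 with adjusted p = 0.0496 without mouse 3.3). Reads of *Zfp580* could be split with *Ccdc106*, which overlaps it on the same strand. *Zfp524*, *Zfp784* and *Zfp865* had log2 fold changes of 0.08, -0.19 and -0.06, with overlapping cohorts.

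In several members 1 mouse stood apart from the rest of its cohort. *Zfp106*, which encodes an RNA-binding protein of nerve and muscle, was at 5.65, 6.69 and 6.23 RPKM in *Hoxa9*/MTV versus 6.37, 2.52 and 2.68 RPKM in *Hoxa9*/*IRX3* mice. Mouse 3.2 lay within the control range, and without it the log2 fold change went from -0.72 to -1.11 (adjusted p = 0.0147 by limma). *Zfp408* was at 5.34, 5.35 and 5.86 and at 7.39, 2.22 and 2.13 RPKM, so that mouse 3.2 lay above the control range. Without mouse 3.2 the log2 fold change of *Zfp408* was -1.17 (adjusted p = 0.00995 by limma). Both genes lie on chromosome 2. *Zfp239* was at 3.43 RPKM in mouse 3.2 and between 0.711 and 1.28 RPKM in the other 5 mice. *Zfp105* was at 0.0142 RPKM in mouse 3.2, which is 1 read, and between 0.709 and 1.55 RPKM in the others. The pseudogene *Zfp783* was at 5.40 RPKM in mouse 3.2 and at 0.056 and 0.059 RPKM in mice 3.3 and 3.5, while the *Hoxa9*/MTV mice also ranged from 0.123 to 1.97 RPKM, and it overlaps *Zfp956* on the same strand. *Zfp507* ranged 30.4-fold within the *Hoxa9*/*IRX3* cohort and 9.33-fold within *Hoxa9*/MTV. A range of at least 8-fold within a cohort occurred in no other members than these 3 (*Zfp105*, *Zfp783*, *Zfp507*), *Zfp580* and *Zfp11*.

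The members were next divided by the KRAB box, found with a profile in the proteins of 119 of the 220 coding members. The 117 tested in both cohorts had a median log2 fold change of -0.01, and the 100 without a box found had -0.13. A divergent box can be missed, and *Zfp263* in the second class may be such a case. The 8370 genes under the rule had -0.08. At an unadjusted p under 0.05, 6 KRAB members were higher and 7 lower (5.13% and 5.98%), while 3 of the others were higher and 18 lower (3.00% and 18.0%). The shares over all genes under the rule were 7.04% and 15.7%. The cohorts did not overlap in 9 KRAB members that were higher and 8 that were lower, and in 5 and 24 of the others. The shares on the higher side were 7.69% and 5.00%, beside 10.2% of all genes under the rule. Thus 24.0% of members without a KRAB box and 6.84% of those with it lay lower in all *Hoxa9*/*IRX3* mice, beside 21.6% of all genes under the rule. The KRAB median was the higher of the 2 in the main analysis and in all 17 alternatives, by 0.06 to 0.14, but its own sign was positive with median-of-ratios scaling (0.05), with quantile normalization (0.07) and without mouse 1.1, 1.4 or 3.5. The difference between the classes was not tested, since members were chosen with results known.

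**Figure D3:**
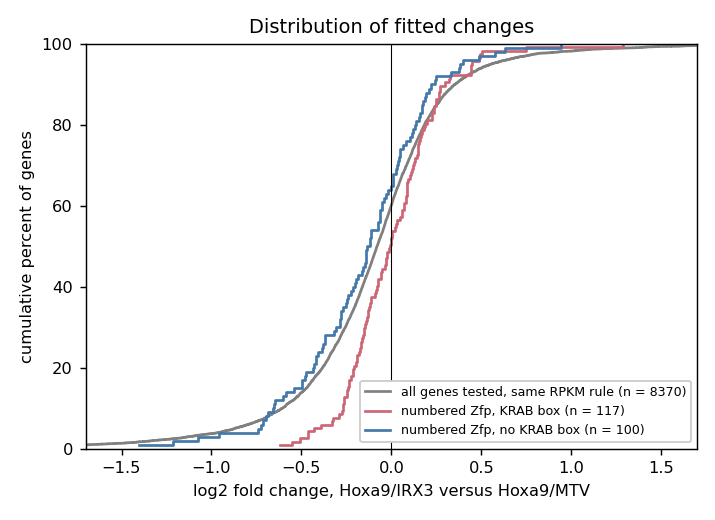
Cumulative percent of genes (vertical) by log2 fold change of *Hoxa9*/IRX3 versus *Hoxa9*/MTV (horizontal) for the 117 members with a KRAB box (red), the 100 without (blue) and the 8370 genes under the same RPKM rule (grey). The red curve is the steepest, with few KRAB members below -0.5, and the blue curve runs to the left of zero for 65 of its 100 genes. Some grey genes lie outside the range drawn.

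Level and base composition moved with the KRAB box. KRAB members had a median of the mean RPKM of 1.45 and a median GC content of the longest coding transcript of 42.6%, while the others had 2.60 RPKM and 51.8%. The genes under the rule with a GC value were split into 5 classes of 1668 or 1669 genes by GC content. The median log2 fold change went from -0.01 in the lowest class to -0.16 in the highest. Below the median GC content of 50.4%, the median was -0.01 for 100 KRAB members, -0.07 for 43 others and -0.03 for 4171 genes in all. At or above it, the median was -0.08 for 17 KRAB members, -0.16 for 57 others and -0.13 for 4172 genes. The order of the classes was the same on both sides of the GC median, with smaller gaps, and the part of GC content was not tested.

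**Figure D4:**
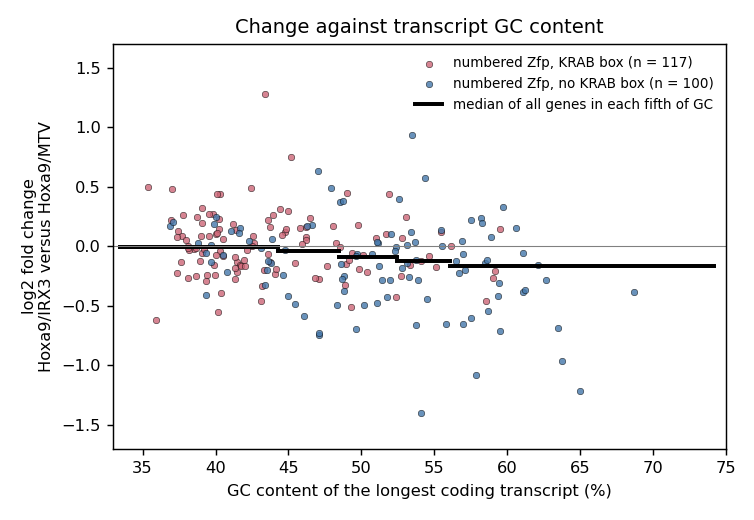
Log2 fold change of *Hoxa9*/IRX3 versus *Hoxa9*/MTV (vertical) against the GC content of the longest coding transcript in percent (horizontal) for members with (red) and without (blue) a KRAB box. Black lines give the median of the genes under the rule with a GC value within 5 classes of GC content. It runs from -0.01 down to -0.16, and most KRAB members lie at the low end of GC.

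Members were also divided by their number of fingers and by chromosome. The median log2 fold change was -0.18 for 36 members with 0 to 4 C2H2 fingers, of which 5 have a KRAB box, and -0.12 for 71 members with 5 to 9. It was 0.01 for 67 members with 10 to 14 fingers and -0.03 for 43 with 15 or more. By chromosome, the 58 tested members on chromosome 7 had a median of -0.01, the 26 on chromosome 17 of -0.08, the 21 on chromosome 13 of 0.09 and the 17 on chromosome 8 of -0.14. The 13 on chromosome 5 had a median of -0.21 and the 8 on chromosome 2 of -0.41. Cohorts did not overlap for 3 members that were higher and 9 that were lower on chromosome 7, for 1 and 5 on chromosome 17, for 3 and 1 on chromosome 13, for 0 and 2 on chromosome 8, for 1 and 4 on chromosome 5 and for 0 and 1 on chromosome 2. The shares over all genes under the rule were 10.2% and 21.6%, and the differences between chromosomes were not tested.

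Members with a known role were examined as a list. Of 28 such genes, 27 were in the table and 21 were members. None was called. Of these 21, 2 were higher and 5 lower without overlap between cohorts, beside 10.2% and 21.6% of all genes under the rule. Their median log2 fold change was -0.14, beside -0.08 for all genes under the rule. *Zfp445*, a KRAB gene that maintains imprints, had means of 9.86 ± 0.749 RPKM in *Hoxa9*/MTV versus 8.55 ± 1.03 RPKM in *Hoxa9*/*IRX3* mice (SD, n = 3 each). *Zfp57*, also required for imprint control, was listed at 0 in the *Hoxa9*/MTV mice and at most at 0.106 RPKM. *Zfp568*, the KRAB repressor of a placental *Igf2* transcript, had means of 3.67 ± 0.060 and 3.10 ± 1.25 RPKM (SD, n = 3 each). *Zfp932*, a KRAB gene, had 1.10 ± 0.296 and 0.863 ± 0.183 RPKM (SD, n = 3 each). *Zfp708* and *Zfp819*, both KRAB genes, did not meet the RPKM rule, with at most 0.883 and 0.030 RPKM in any mouse. In *Zfp445*, *Zfp568* and *Zfp932* the cohorts overlapped.

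Among factors that bind promoters, *Zfp281* was at 11.9 ± 1.42 and 11.8 ± 2.17 RPKM, and *Zfp143* at 0.896 ± 0.0994 and 0.866 ± 0.115 RPKM (SD, n = 3 each). *Zfp148* was at 1.14, 1.17 and 1.01 RPKM in *Hoxa9*/MTV versus 1.34, 1.30 and 1.36 RPKM in *Hoxa9*/*IRX3* mice, without overlap but with a ratio of means of only 1.20 (adjusted p = 0.289 by limma). *Zfp384*, whose human counterpart is a fusion partner in B cell leukemia, was at 3.05 ± 0.472 and 3.41 ± 0.911 RPKM (SD, n = 3 each). *Zfp217* and *Zfp703*, whose human counterparts are amplified in breast cancer, were at 5.75 ± 0.450 and 4.28 ± 1.35 RPKM and at 17.6 ± 4.24 and 20.04 ± 6.69 RPKM (SD, n = 3 each). The cohorts overlapped for the last 3. *Zfp207*, which encodes a spindle assembly factor, was at 16.8 ± 2.79 and 15.1 ± 1.25 RPKM (SD, n = 3 each).

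*Zfp335* and *Zfp318*, which act in lymphocytes, were lower in all *Hoxa9*/*IRX3* mice by a small margin that mouse 3.5 enlarged. *Zfp335* was at 1.71, 1.51 and 1.54 and at 1.41, 1.40 and 0.542 RPKM (adjusted p = 0.338 by limma). *Zfp318* was at 1.23, 0.958 and 1.03 and at 0.865, 0.954 and 0.317 RPKM (adjusted p = 0.320 by limma). *Zfp91*, which encodes a ubiquitin ligase, was at 11.6, 12.5 and 12.3 and at 8.78, 10.3 and 10.9 RPKM, lower in all 3 mice without passing the test (adjusted p = 0.261 by limma). *Zfp110* (6.34 ± 0.799 and 7.56 ± 1.14), *Zfp131* (4.18 ± 0.429 and 3.82 ± 0.943), *Zfp260* (3.68 ± 1.11 and 4.09 ± 0.747) and *Zfp644* (1.07 ± 0.233 and 1.18 ± 0.0764 RPKM, SD, n = 3 each) overlapped between cohorts. *Zfp42* (Rex1, a marker of pluripotent cells), *Zfp423* and *Zfp521* were listed at 0 in all 6 mice.

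The 5 members with the highest mean level per length were *Zfp36*, *Zfp830*, *Zfp422*, *Zfp703* and *Zfp646*. *Zfp830* was at 26.7, 28.9 and 26.1 RPKM in *Hoxa9*/MTV versus 31.1, 25.6 and 18.4 RPKM in *Hoxa9*/*IRX3* mice. *Zfp422* was at 25.9 ± 3.37 and 24.1 ± 6.01 RPKM and *Zfp646* at 17.7 ± 2.53 and 14.9 ± 3.72 RPKM (SD, n = 3 each). Apart from *Zfp36*, the cohorts overlapped in all of these, and among the 4 that follow it the ranges of neighbors in this order overlapped.

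The partners that KRAB proteins recruit were examined as a separate list of 24 genes. All were in the table and 23 were tested. Of these, 0 were called by limma in either direction, by limma voom or by the criterion of the study. There were 3 higher and 2 lower at an unadjusted p under 0.05 (13.04% and 8.70%), beside 7.04% and 15.7% of the 8370 genes. The cohorts did not overlap in 4 that were higher and 6 that were lower (17.4% and 26.1%), beside 10.2% and 21.6%. The difference from all genes under the rule was not tested. *Trim28* itself, the common corepressor, was at 50.1, 49.8 and 50.0 RPKM in *Hoxa9*/MTV versus 46.2, 37.8 and 43.3 RPKM in *Hoxa9*/*IRX3* mice. It was lower in all 3 mice by a small amount (log2 change -0.24 ± 0.14 SE, limma adjusted p = 0.329). *Setdb1*, the H3K9 methyltransferase, was at 2.25 ± 0.104 and 1.96 ± 0.349 RPKM, and *Cbx5*, which encodes HP1α, at 10.4 ± 0.810 and 8.54 ± 0.361 RPKM (SD, n = 3 each). The genes with an unadjusted p under 0.05 were *Suv39h2* (0.69), *Atf7ip* (0.40) and *Hdac2* (0.29) on the higher side and *Ehmt2* (-0.52) and *Atrx* (-0.37) on the lower side, given as log2 fold changes. Of these, *Suv39h2* had adjusted p = 0.0348 without mouse 3.3 by limma and did not reach 2-fold on log2(RPKM + 0.5) there. With all mice, the ratio of its mean RPKM was over 2.

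For comparison, 45 *Zbtb*, *Zscan* and *Zkscan* genes, zinc finger genes named by another system, met the same RPKM rule in both cohorts. Of these, 1 was called higher (2.22%) and 0 lower, beside 0.765% and 1.59% of all genes under the rule. It was *Zbtb40*, at 0.733, 0.472 and 0.483 RPKM in *Hoxa9*/MTV versus 1.52, 1.65 and 2.01 RPKM in *Hoxa9*/*IRX3* mice (log2 change 1.07 ± 0.15 SE, limma adjusted p = 0.0153). All 3 *Hoxa9*/*IRX3* mice were higher, and the call was lost without mouse 1.2 or 1.4 (adjusted p = 0.0884 and 0.0919 by limma) and, on size, without mouse 3.5 (log2 change 0.98). *Zkscan1* was also higher in all 3 mice, at less than 2-fold (0.60 ± 0.12 SE, limma adjusted p = 0.0383). At an unadjusted p under 0.05, 5 of the 45 genes were higher and 3 lower (11.1% and 6.67%), beside 7.04% and 15.7%. The median log2 fold change of the 45 genes was -0.03, beside -0.08. The difference from the numbered *Zfp* genes was not tested.

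Promoters were read for 183 of the 220 protein-coding members from RefSeq (GRCm38.p6), as the 250 bases before each of their 228 annotated starts. Both strands were searched for the Iroquois-type site ACANNTGT, the HOX-PBX-type site TGATTTA and the E-box CACGTG, and an E-box that lies inside ACANNTGT counted for both. ACANNTGT stood in 4 of the 228 (1.75%), TGATTTA in 2 (0.877%) and CACGTG in 10 (4.39%). The shares over all 32851 promoters were 6.31%, 2.61% and 6.02%, and over those of the genes tested 3.20%, 1.30% and 8.70%. Member promoters had a median GC content of 55.6%, those of the genes tested 59.6% and all promoters 52.4%. A match is a description of the letters and does not mark a bound site.

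The promoters of the 2 members with the largest differences on the higher side on log2(RPKM + 0.5) are shown, because 1 holds the Iroquois-type letters and the other does not. That of *Zfp111* (chr7:24208150-24208399, minus strand, the first of 2 annotated starts) holds ACANNTGT at 2 places, in capitals. Both RefSeq windows of *Zfp111* lie inside its GENCODE M21 span given above, and the bases before the GENCODE start were not read. The other start of *Zfp111* and the promoter of *Zfp78* (chr7:6363058-6363307, plus strand) hold none of the 3 motifs. None was found in those of *Zfp691*, *Zfp809*, *Zfp36*, *Zfp692* or *Zfp579* either, while that of *Zfp945* holds TGATTTA.
Zfp111: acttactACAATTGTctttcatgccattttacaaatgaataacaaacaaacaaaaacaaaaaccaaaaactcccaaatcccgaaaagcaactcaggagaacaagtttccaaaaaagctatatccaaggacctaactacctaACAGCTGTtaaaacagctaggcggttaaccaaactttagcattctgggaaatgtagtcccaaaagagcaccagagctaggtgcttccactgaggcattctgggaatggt
Zfp78: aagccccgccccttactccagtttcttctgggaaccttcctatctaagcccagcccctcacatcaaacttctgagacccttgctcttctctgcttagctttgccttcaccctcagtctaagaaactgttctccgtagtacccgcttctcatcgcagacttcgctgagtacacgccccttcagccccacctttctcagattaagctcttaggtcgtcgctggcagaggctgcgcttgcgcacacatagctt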

How the data were processed

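The authors sequenced strand-specific polyA libraries, aligned them to GRCm38 with Bowtie2 2.2.1, used SAMtools 0.1.19 to drop alignments of Phred quality below 20, and assigned reads to Ensembl genes. They deposited RPKM per gene and mouse, divided by the whole gene span. Strand use in counting is not given in the sources used here. Reads shared by similar *Zfp* genes can be lost at the quality filter, and reads of 103 of the 220 protein-coding members can also fall on another annotated gene. Reads were recovered from the RPKM steps (whole within 0.01 for 54.1% of the 222 members with an entry in GENCODE M21).

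Protein-coding genes over 0.5 RPKM in at least 1 mouse (9522) were put on the log2(RPKM + 0.5) scale and fitted by limma 3.58.1 under R 4.3.3 (eBayes with a variance trend, Benjamini-Hochberg adjustment over all of them). This scale understates changes of weak genes. No exact p below 0.1 is possible with 3 mice against 3. The fit was tested on simulated data.

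KRAB boxes were found with a profile built from 158 windows of numbered *Zfp* proteins (pyhmmer 0.12.3, E-value at most 0.001), which can miss divergent boxes, and C2H2 fingers by their spacing, in translated GENCODE M21 transcripts. Python 3.11.15, pandas 2.3.3 and matplotlib 3.10.9 did the rest.

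The members and lists were chosen with earlier results of these data known. Named were members of the role list, those past both limits, the 5 largest rises and falls without overlap, the 5 highest means, 3 genes on each side of the threshold, and called genes of the comparison lists with *Trim28*, *Setdb1* and *Cbx5*. Other genes were named after their values were seen. Lists of sorting, granulocyte, monocyte, B, T and NK, erythroid, megakaryocyte and early response genes were summed. Alternatives were other pseudocounts, filters, scalings, variance models, tests and member rules, and leaving out each mouse.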

Additional observations from a re-analysis of the deposited data

How the results depend on the processing

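No paired analysis was possible because the mouse numbers are not shared between the cohorts. The count of 0 members called higher became 2 with quantile normalization, 1 with sample weights, 2 by the criterion of the study and 1 when members were taken by a mean over 0.5 RPKM, which lets *Zfp78* in. It was 0 to 1 when each mouse was left out, with 1 (*Zfp691*) without mouse 3.5. The count of 0 called lower became 3 by the criterion of the study. It was 0 to 3 when each mouse was left out, with 2 (*Zfp106* and *Zfp408*) without mouse 3.2 and 3 (*Zfp36*, *Zfp579* and *Zfp580*) without mouse 3.3. The 9 members higher at an unadjusted p under 0.05 became 18 with median-of-ratios scaling and 20 with quantile normalization, and the 25 lower became 16 under both, while the 589 and 1315 of all 8370 genes under the rule became 883 and 1031, and 950 and 981. Without each mouse in turn the higher count was 4 to 17 (17 without mouse 1.1, 14 without 3.5, 4 without 1.2) and the lower count 12 to 31 (12 without 1.4, 13 without 1.1). The 1 *Zbtb*, *Zscan* or *Zkscan* gene called became 0 with a pseudocount of 1 and 0 to 1 without each mouse. The cause was not tested in any of these. The member median moved by less than the spread between mice (0.13) under every alternative and was positive without mouse 3.5 (0.01) and under both scalings, which moved the median of all genes tested alike (from -0.06 to 0.01 and 0.02). No KRAB corepressor gene was called by limma under any alternative or by the criterion of the study. For 43 genes, taken mostly for an unadjusted p under 0.05 so that most do not overlap between cohorts and could not turn when a mouse was left out, 731 log2 fold changes under alternatives were computed. None turned. An adjusted p under 0.05 was lost, or the criterion of the study not met, in 33 (of *Zfp362*, *Zfp945*, *Zbtb40* and *Zkscan1*). In 16 an adjusted p under 0.05 was gained, regardless of size, or that criterion was met. The fit on all gene types was added after seeing the data. Few reads stand behind the weakest members, and 3 mice per cohort limit the changes that can be called.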
